A study of Mus musculus with 59 samples.

Results

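Genes of astrocytes and radial glia were followed in embryoid bodies that had been made to form spinal motor neurons and were then exposed to mouse serum. The members were 10 genes chosen by symbol, namely Gfap, Aqp4, Slc1a2, Slc1a3, Aldh1l1, S100b, Fabp7, Sox9, Glul and Gja1 as known markers of these cells. Of the 10, 8 were measured among 19613 genes, and Slc1a3 and Gja1 were not analysed here. The embryoid bodies came from 1 mouse embryonic stem cell line, HGB3, which carries a fluorescent reporter of the motor neuron gene Mnx1 (HB9), and were treated with retinoic acid and an agonist of the hedgehog pathway before serum was added for 24 h. Serum of male carrier mice, hemizygous for a mutant human SOD1 transgene and bled before symptoms, was used for 29 arrays, and serum of non-carrier littermates for 30 arrays. All serum donors were F1 progeny of C57BL/6 and SJL mice. By the labels 53 arrays have 9 weeks as their time point and 6 arrays have 10 weeks. The labels do not say whether this is the age of the serum donors. In the study the donors were about 9 weeks old, and serum was added within days, not weeks, of the start of differentiation. The same reporter line and treatment were used for both sera, and cells other than motor neurons remained in the embryoid bodies. Values are log2 intensities of Affymetrix mouse exon arrays. Levels of different genes are not compared, because each gene has its own probes.

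Radial glia are the neural progenitors of the embryonic neural tube. In the ventral spinal cord, progenitors that express Olig2 give rise first to motor neurons and later to oligodendrocytes, while Sox9 is a transcription factor of progenitors that is needed for the switch from making neurons to making glia. Astrocytes form later from radial glia, and then carry the intermediate filament protein GFAP, the water channel AQP4 and the transporters that remove glutamate from the synapse.

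Runs had to be read from the array titles, since no label gives a batch, and 9 were told apart by a common name or by neighbouring numbers. Of these, 3 are called by their titles or labels (motorneuron, HB9MNs and 10-week) and 6 are called A to F. The number of arrays ran from 4 in HB9MNs to 11 in C, and each run held arrays of both sera. The run motorneuron stood apart in brightness. Its mean array median was 7.45 on the log2 scale, against 7.27 to 7.33 in the other 8 runs, and its olfactory receptor genes, which neural cells do not need, had a mean median of 4.84 against 4.45 to 4.61. The two-sided Grubbs' test called 2 arrays, non-carrier array 2 of run C and carrier array 3 of run E.

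Promoter sequences are shown for 3 members on which the results turn. Gfap and S100b had the highest Pearson's r across runs, and Slc1a2 was the member that was called for serum. RefSeq start sites on GRCm38.p6 were available in the table used for 6 of the 8 measured members (Gfap, S100b, Slc1a2, Aldh1l1, Fabp7 and Glul), and each sequence runs 5′ to 3′ on the strand of the gene, from 250 bases before the start to 10 bases after it. Capitals mark matches, on either strand, to 5 short motifs. These were the STAT motif TTCNNNGAA, the half-site of nuclear factor I TTGGCA, the CCAAT box CCAAT, the RBPJ motif TGGGAA and the SOX motif ACAAAG. The Gfap window lies at chr11:102897191-102897450 on the minus strand, that of S100b at chr10:76253586-76253845 on the plus strand and that of Slc1a2 at chr2:102706188-102706447 on the plus strand.
Gfap: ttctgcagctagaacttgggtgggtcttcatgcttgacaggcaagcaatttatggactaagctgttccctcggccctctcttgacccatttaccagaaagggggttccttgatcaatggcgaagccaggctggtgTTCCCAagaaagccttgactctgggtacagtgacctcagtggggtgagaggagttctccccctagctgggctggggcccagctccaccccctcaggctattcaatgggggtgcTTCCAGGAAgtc
S100b: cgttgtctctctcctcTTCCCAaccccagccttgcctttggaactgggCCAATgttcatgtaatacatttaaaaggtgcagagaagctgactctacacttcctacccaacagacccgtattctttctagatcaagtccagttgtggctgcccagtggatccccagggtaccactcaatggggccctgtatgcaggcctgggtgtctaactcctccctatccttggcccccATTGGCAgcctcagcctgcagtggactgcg
Slc1a2: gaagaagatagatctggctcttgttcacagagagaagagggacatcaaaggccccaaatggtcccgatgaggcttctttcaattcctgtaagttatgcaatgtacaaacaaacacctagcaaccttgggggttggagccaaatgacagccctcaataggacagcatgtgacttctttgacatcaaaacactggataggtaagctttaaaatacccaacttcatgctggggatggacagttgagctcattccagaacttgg
The Gfap window held a STAT match that spans the start (positions -2 to 7) and an RBPJ match at -115 to -110. Around S100b there was an RBPJ match at -234 to -229, a CCAAT box at -202 to -198 and a second one at -20 to -16 that overlaps a nuclear factor I half-site at -19 to -14. The RBPJ motif was shared by Gfap and S100b, was also in the windows of Aldh1l1 and Fabp7, and was in 22.4% of all 32851 promoter windows of this length. STAT matches were in 7.33% of all windows, nuclear factor I half-sites in 12.6%, CCAAT boxes in 34.6% and SOX motifs in 17%. None of the 5 motifs was in the Slc1a2 window, whose letters were 45% G or C, against 55.8% for Gfap, 54.2% for S100b and a median of 52.3% over all windows. A match is a stretch of letters and does not show that a factor binds.

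Most members, like most genes, were measured above the level of genes that are not expected in these cells. Over 1032 olfactory receptor genes the 95th percentile of the mean log2 intensity was 6.31, and 7 of the 8 members lay above it. So did 13087 of all 19613 genes. Aqp4, the water channel of astrocyte endfeet, had a mean of 6.24 and lay below. Gfap had a mean of 6.52, with 3.10% of the olfactory receptor genes above it, S100b 6.70 with 1.84% above it and Aldh1l1 7.17 with 1.16% above it. No olfactory receptor gene reached the means of Fabp7 (12.90), Sox9 (9.84) or Glul (9.56), and 0.0969% were above Slc1a2 (8.58). Of the astrocyte genes, Aqp4 thus lay below the limit. Gfap, S100b and Aldh1l1 lay above it with some olfactory receptor genes higher still, and Glul and Slc1a2 lay beyond all or nearly all of them. Because each gene has its own probes, these positions do not rank the members. An array measures all cells of the embryoid bodies together, so that fewer cells of a type and less RNA per cell cannot be told apart.

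The level of every member depended on the run. Differences among the 9 runs were called for 8 of 8 members (limma moderated F test with serum in the model, Benjamini-Hochberg adjusted p under 0.05, the threshold for a call throughout), but 94.0% of all 19613 genes were called in the same test. The adjusted p ranged from 4.85e-21 for Slc1a2 to 1.27e-04 for Sox9. The run took 88.2% of the variance of Slc1a2, 83.0% of that of S100b, 82.6% of that of Aldh1l1, 60% of that of Fabp7 and 44.3% of that of Sox9. Those of Aqp4, Glul and Gfap lay between, at 76.1%, 76.1% and 72.2%. For Fabp7 the difference rested on 1 run. Without run B the adjusted p was 0.102. The study describes assays of separate serum samples, but the labels do not tie arrays to mice or cultures, so that p-values measure the spread between these arrays, part of which may be technical.

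Gfap, the intermediate filament of astrocytes, S100b, a calcium-binding protein of astrocytes and other glia, and Aqp4 were highest in the run motorneuron and lowest in run E. The 4 non-carrier arrays of motorneuron had S100b levels of 7.25, 7.46, 7.47 and 7.28, and its 3 carrier arrays 7.67, 7.62 and 7.34. In run E the non-carrier arrays had 6.47, 6.04 and 5.87 and the carrier arrays 6.05, 5.90 and 5.95. All arrays of the first run were thus above all arrays of the second. The run means of S100b were 7.45 in motorneuron, 6.98 in B, 6.79 in F, 6.72 in HB9MNs, 6.65 in 10-week, 6.59 in D, 6.58 in A, 6.52 in C and 6.05 in E, a range of 1.41 or 2.65-fold. Of the 8 gaps between neighbours in this order, 3 were larger than the pooled SD of 0.18 within runs and sera, namely those below motorneuron and below B and that above E.

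Gfap had run means of 6.93 in motorneuron and 6.15 in E, a 1.72-fold range. In motorneuron the non-carrier arrays had 6.96, 6.89, 7.14 and 6.87 and the carrier arrays 6.86, 7.03 and 6.81. Those of run E had 6.21, 5.96 and 6.01 with non-carrier and 6.21, 6.03 and 6.49 with carrier serum, again with no overlap between the runs. The 7 runs in between had Gfap means of 6.42 to 6.62, and no gap between neighbours among these 7 was larger than the pooled SD of 0.13. Aqp4 ran from 6.72 in motorneuron to 6.02 in E, with 1 of 8 gaps larger than its SD of 0.13. With quantile normalization between arrays the Gfap range shrank from 0.78 to 0.33, and Aqp4 was highest in F (6.44) and lowest in A (6.07).

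Slc1a2, Aldh1l1 and Glul followed other orders of the runs. Slc1a2, the main glutamate transporter of astrocytes, had its highest mean in run A, at 8.95, and its lowest in E, at 8.27, with HB9MNs at 8.74, C at 8.70, D at 8.60, motorneuron at 8.58, F at 8.46, 10-week at 8.44 and B at 8.38. Of the 8 gaps, 4 exceeded the pooled SD of 0.070. Aldh1l1, a folate enzyme used as a pan-astrocyte marker, was highest in A at 7.79 and lowest in motorneuron at 6.64, a 2.22-fold range. Its next runs were C at 7.56, D at 7.27 and E at 7.22, and B and HB9MNs were near the lower end at 6.78 and 6.67. Glul, the enzyme that turns glutamate into glutamine, was highest in E at 9.78 and lowest in motorneuron at 9.23, the reverse of Gfap, S100b and Aqp4.

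As deposited, the progenitor members had the smallest ranges of run means, 0.45 for Fabp7 and 0.31 for Sox9. With quantile normalization the Fabp7 range (0.44) was larger than those of Gfap (0.33) and Aqp4 (0.37), and after median centring it was 0.54 against 0.51 for Aqp4. Fabp7, the brain lipid-binding protein of radial glia, was highest in run B at 13.21 and lay between 12.77 and 12.96 in the other 8 runs. In run B the non-carrier arrays had 13.32, 13.21 and 13.01 and the carrier arrays 13.25, 13.25 and 13.23. With 1 gap of 8 above the pooled SD of 0.094, only run B stood apart from its neighbour for Fabp7. Sox9 ran from 9.96 in motorneuron to 9.65 in F, a 1.24-fold range, and F was the only run of Sox9 separated from its neighbour (E, at 9.78) by more than the pooled SD of 0.11. After median centring of the arrays, B was the highest run of Sox9 (9.95).

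**Figure D1:**
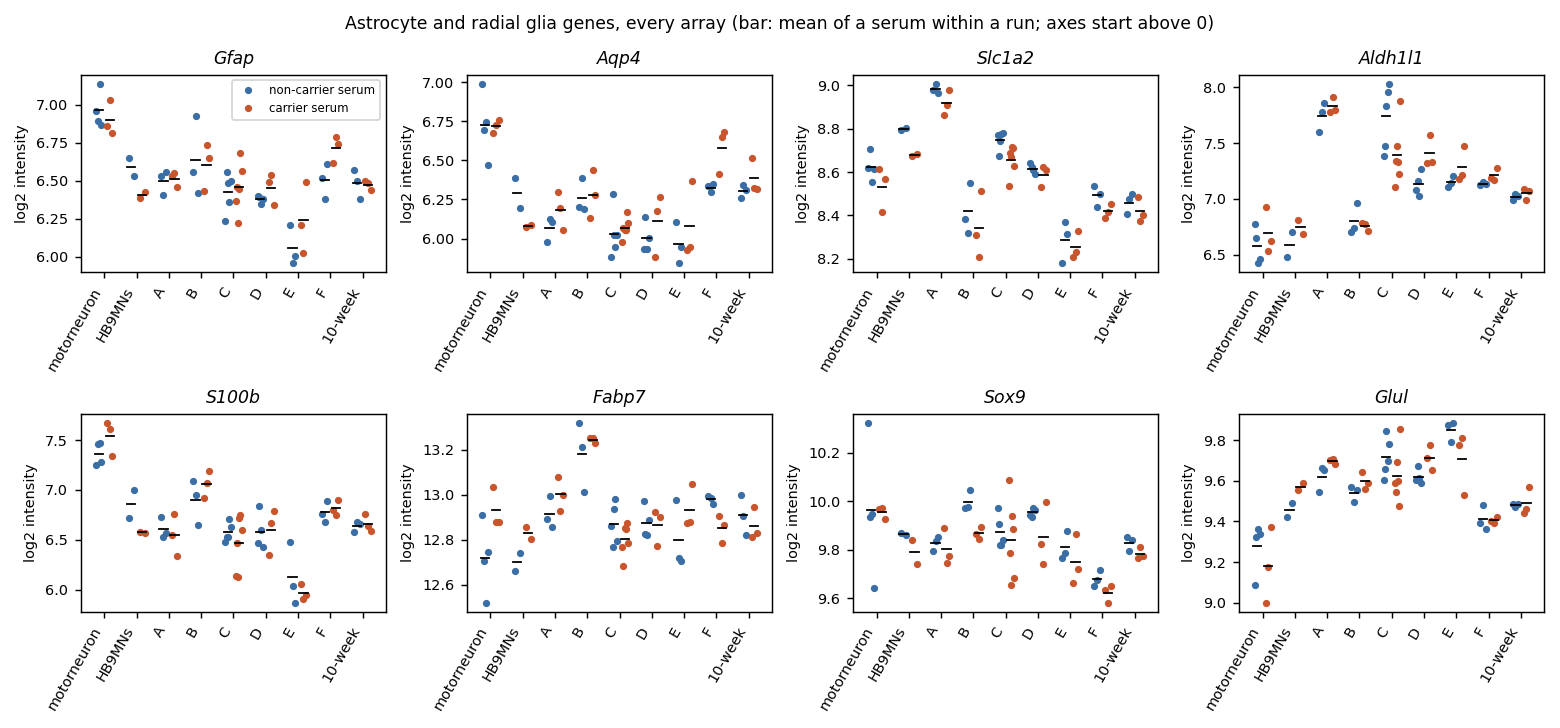
Log2 intensity of the 8 measured members in each of the 59 arrays, by run on the horizontal axis, with non-carrier serum in blue, carrier serum in orange and a bar at the mean of each serum within a run. S100b, Gfap and Aqp4 are highest in motorneuron and lowest in E, and Slc1a2 and Aldh1l1 are highest in A.

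Across the 9 run means, Gfap and S100b had the highest Pearson's r of the 28 pairs of members (r = 0.985, Spearman's rho = 0.867), and r was 0.878 without motorneuron and E, the 2 runs farthest from the median of Gfap. Gfap and Aqp4 gave r = 0.876. S100b and Aqp4 gave r = 0.857, with a higher rho (0.9) than Gfap and S100b. Glul was opposite to these 3 genes, with r = -0.969 against Aqp4, -0.896 against Gfap and -0.885 against S100b. Within runs, over 59 arrays after the run and serum means were removed, Gfap and Aqp4 still gave r = 0.625, whereas Gfap and S100b gave 0.348 and Aqp4 and Glul -0.254. These values describe runs and arrays that share cells and hybridization, and were not tested. With quantile normalization, Gfap and S100b kept r = 0.936 across runs, but Gfap and Aqp4 had 0.588 across and 0.305 within runs.

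Array brightness, taken as the array median, moved with the same genes. The run mean of the array median had r = 0.900 with Gfap, 0.905 with Aqp4, 0.872 with S100b and -0.888 with Glul. Without the run motorneuron these were 0.808, 0.781, 0.718 and -0.809. With the olfactory receptor median in place of the array median, r was 0.681, 0.821, 0.640 and -0.746 in the same order. Without motorneuron these fell to 0.0373, 0.456, -0.0749 and -0.306. For Slc1a2, Aldh1l1, Fabp7 and Sox9 the r with the array median was 0.141, -0.446, -0.139 and 0.371. Several marker lists of other cells, though not all, were also highest in motorneuron. The mean level of 6 Schwann cell and neural crest markers was 7.70 there and 7.17 to 7.43 in the other runs, that of 9 oligodendrocyte lineage markers 6.90 against 6.57 to 6.84, and that of 8 microglia markers 6.63 against 5.83 to 6.17. Endoderm markers had 6.85 there against 6.10 to 6.46, and pluripotency markers 6.23 against 5.84 to 6.12. Floor plate (9.97) and mesenchymal markers (7.09) were highest in 10-week instead, and cell cycle genes (9.78) in E. The other astrocyte genes were highest in A (7.49) and the other radial glia and neural progenitor genes in B (9.27). Above the olfactory receptor range lay 3 of 6 Schwann cell and neural crest, 6 of 9 oligodendrocyte, 2 of 8 microglia, 3 of 6 endoderm and 2 of 6 pluripotency markers. Of all 19613 genes, 13087 lay above it. The part of brightness and of other cells in these differences was not tested.

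**Figure D2:**
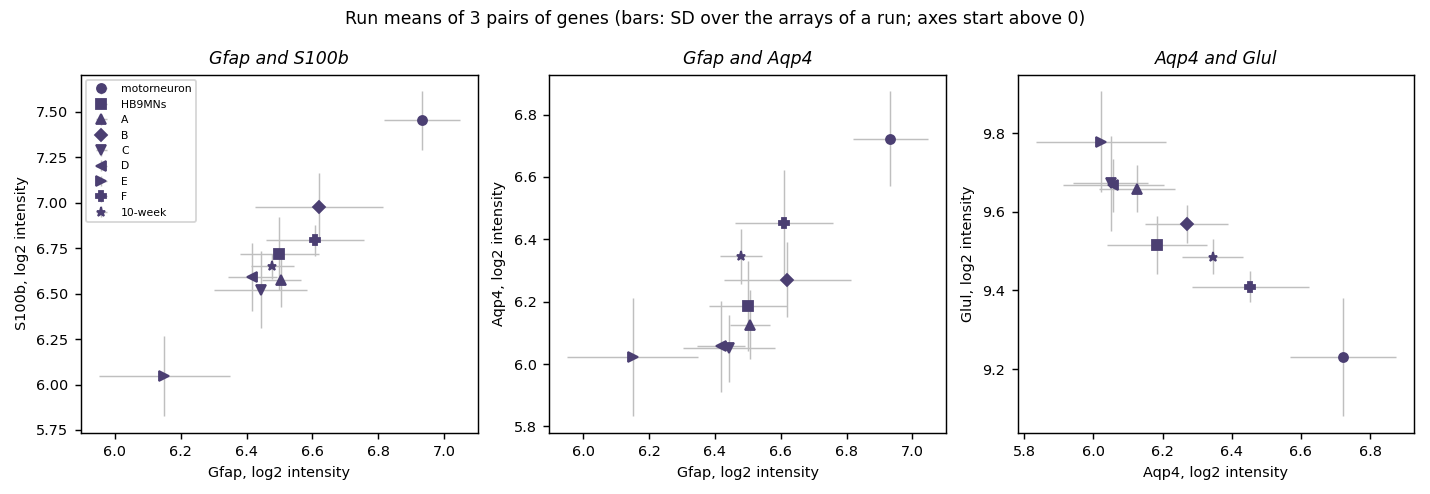
Run means of 3 pairs of members in log2 intensity, with bars of 1 SD over the arrays of a run and 1 symbol for each of the 9 runs. Gfap and S100b rise together (r = 0.985), as do Gfap and Aqp4 (r = 0.876), and Glul falls as Aqp4 rises (r = -0.969).

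The glial genes were then related to the run level of 1 motor neuron progenitor gene, Olig2, which does not stand for the progenitor content of a run. Across runs r with Olig2 was positive for 6 of 7 other genes of motor neuron progenitors and ventral progenitors, but for only 2 of 7 motor neuron genes. It was positive for 12 of 26 other radial glia and neural progenitor genes, 0 of 7 cell cycle genes and 12735 of 19612 genes in all. Olig2 had run means of 9.14 in motorneuron, 9.04 in C, 9.01 in D, 8.98 in A, 8.92 in B, 8.82 in E, 8.64 in F, 8.45 in HB9MNs and 8.36 in 10-week, so that the 6 highest runs formed a continuous group and the 3 lowest lay further down. After median centring, C was highest (9.07). No relation between run means was called. With limma on the 9 run means, 0 of 8 members and 0 of 19612 genes (0%) passed, 544 genes had an unadjusted p under 0.05, and none of these was a member. An exact permutation test over all 362880 pairings also called 0 genes, with 589 at an unadjusted p under 0.05.

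Sox9 had the highest r with Olig2 among the members, 0.553 (exact two-sided permutation p = 0.124, adjusted p = 0.929, n = 9 runs), and a rho of 0.683 (exact permutation p = 0.0503, adjusted p = 1). Without HB9MNs and 10-week, the 2 runs farthest from the median of Olig2, r was 0.874. Without motorneuron it was 0.430, and Glul (0.680) and Aldh1l1 (0.613) were then above Sox9, while Aqp4 had -0.612. With Olig1 in place of Olig2, Sox9 had an r of 0.0504 and Aldh1l1 one of 0.823 (limma adjusted p = 0.300 over all genes). The other 7 members had r of 0.283 for Aldh1l1, 0.246 for Gfap, 0.222 for S100b, 0.215 for Slc1a2, 0.177 for Fabp7, 0.0973 for Glul and -0.0100 for Aqp4, with exact permutation p of 0.458 to 0.981. Their r without HB9MNs and 10-week was -0.0774, 0.347, 0.379, 0.486, -0.213, -0.125 and 0.0798, in the same order. The sign of r thus turned for Aldh1l1, Fabp7, Glul and Aqp4. The median r of the members was 0.218, that of all genes 0.158. With 9 runs the precision is low, and a p over the threshold does not show that a gene is unrelated to Olig2.

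**Figure D3:**
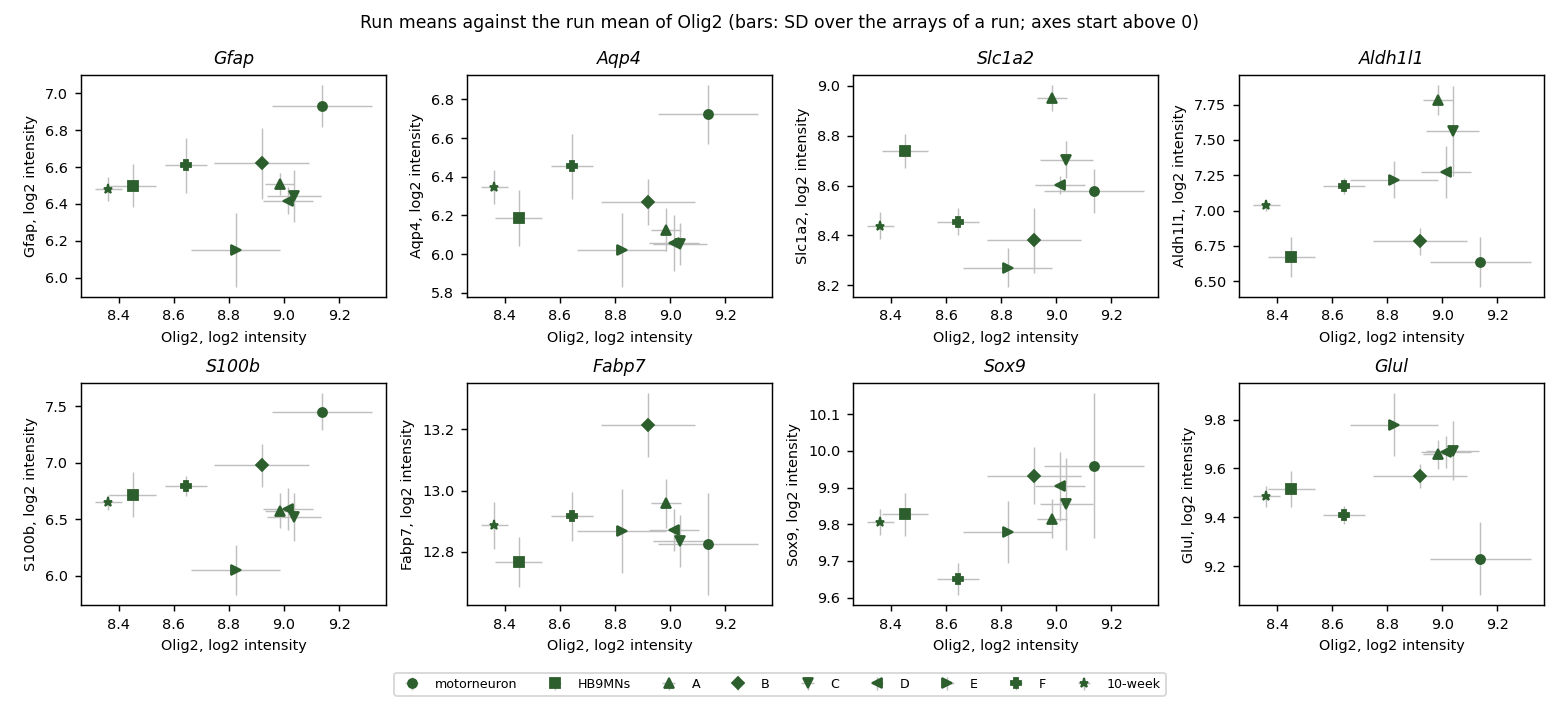
Run mean of each member against the run mean of Olig2, both in log2 intensity, with bars of 1 SD over the arrays of a run and 1 symbol for each of the 9 runs. Over all 9 runs Sox9 has the highest r (0.553) and Aqp4 one of -0.0100, and without motorneuron these are 0.430 and -0.612, with Glul highest at 0.680.

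Within runs Sox9 rose with Olig2. A limma fit with run and serum gave a slope of 0.50 log2 units of Sox9 per log2 unit of Olig2 (SE 0.11, 95% confidence interval 0.27 to 0.73, adjusted p = 0.00151), and r was 0.543 over 59 arrays. Sox9 was 1 of 8 members called in this test, while 26.1% of all genes were called and 16.2% were called as rising. The other members had slopes of 0.30 for Aqp4 (adjusted p = 0.176), 0.14 for Aldh1l1 (0.689), 0.068 for S100b (0.846), 0.056 for Slc1a2 (0.669), -0.0011 for Fabp7 (0.997), -0.17 for Gfap (0.490) and -0.23 for Glul (0.167).

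The Sox9 slope rested in part on the run motorneuron. There the non-carrier arrays had Sox9 levels of 10.32, 9.94, 9.95 and 9.64 beside Olig2 levels of 9.35, 9.17, 9.02 and 8.84, and the carrier arrays had 9.97, 9.97 and 9.93 beside 9.34, 9.04 and 9.16. The first and the last of the non-carrier arrays were the highest and lowest of the run in both genes. Without the run the slope was 0.31 (adjusted p = 0.144), and without non-carrier array 4 of that run alone it was 0.35 (adjusted p = 0.0596). Without run E, 2 more members were called, Aqp4 with a slope of 0.54 (adjusted p = 0.00884) and Glul with one of -0.40 (adjusted p = 0.00933). Leaving out carrier array 3 of run E alone called the same 2 genes, at 0.48 (adjusted p = 0.0186) and -0.36 (adjusted p = 0.0137).

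**Figure D4:**
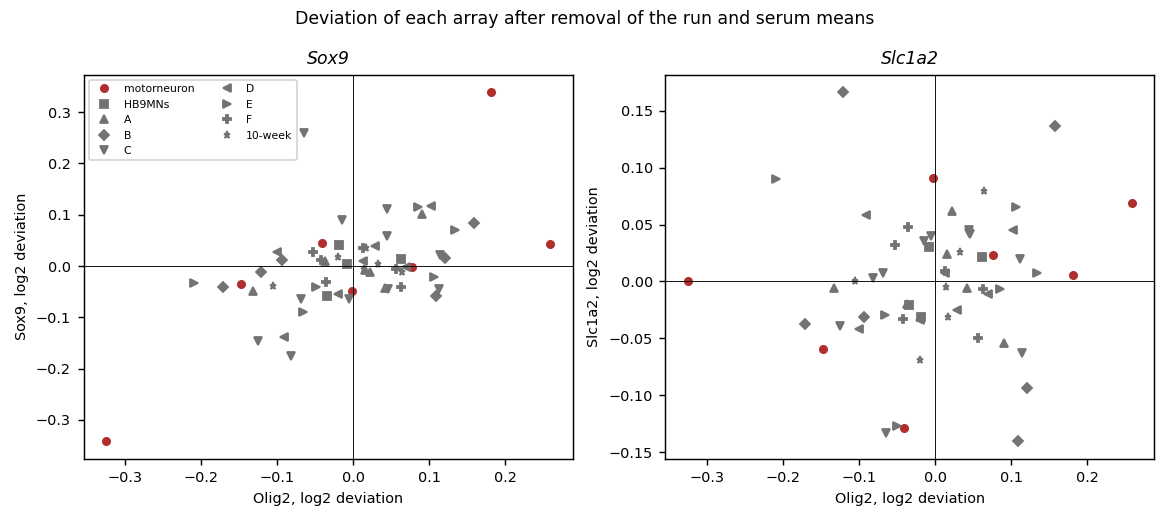
Deviation of Sox9 and Slc1a2 from the run and serum means against that of Olig2 in each of the 59 arrays, in log2 units, with the run motorneuron in red. The outermost points of the Sox9 panel (r = 0.543) belong to motorneuron, and the Slc1a2 panel has an r of 0.0940.

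Slc1a2 was slightly lower with carrier serum. The non-carrier arrays had a lowest, median and highest log2 level of 8.18, 8.61 and 9.01 (mean 8.61 ± 0.20 SD, n = 30), and the carrier arrays 8.21, 8.53 and 8.98 (mean 8.54 ± 0.20 SD, n = 29). Both ranges overlapped almost completely, since the runs differ, but the carrier mean was lower in 9 of 9 runs. With run as a block in limma, Slc1a2 fell by 0.068 on the log2 scale (SE 0.018, 95% confidence interval -0.10 to -0.032, adjusted p = 0.0307), which means that it fell by 4.63%. It was 1 of 8 members called in either direction, where 2.33% of all genes were called and 1.65% as lower. Of the 457 calls over all genes 70.7% were lower. With quantile normalization the share was 59.5%.

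Run by run, the sera were close. In HB9MNs the non-carrier arrays had Slc1a2 levels of 8.79 and 8.80 and the carrier arrays 8.67 and 8.68, the only run of 9 in which the sera did not overlap. Non-overlap was not particular to Slc1a2. With 2 arrays of each serum in HB9MNs, it was seen there also for Gfap, Aqp4, S100b, Fabp7, Sox9 and Glul. S100b had 1 such run of 9 and the other 6 members had 2 each. The share over all genes was not counted, so that these counts are not a result about the members. In A the values were 8.98, 9.01 and 8.96 against 8.86, 8.91 and 8.98, and in F 8.54, 8.44 and 8.50 against 8.39, 8.42 and 8.45. Each of these runs had its highest array with non-carrier serum and its lowest with carrier serum. Run C had 8.77, 8.67, 8.74, 8.78 and 8.78 with non-carrier serum, and a lowest and highest of 8.53 and 8.71 around a mean of 8.66 with carrier serum. The difference between the means was largest in HB9MNs, at -0.12, and smallest in D, at -0.027, where the arrays had 8.64, 8.62, 8.61 and 8.59 against 8.53, 8.62 and 8.61. In run E they were 8.18, 8.37 and 8.31 against 8.21, 8.23 and 8.33, with the lowest array among the non-carrier ones. The remaining runs had differences of -0.090 (motorneuron), -0.076 (B) and -0.040 (10-week), each with overlap.

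The call for Slc1a2 was close to the threshold. It was lost with quantile normalization (-0.057, adjusted p = 0.0895), with run as a random block (adjusted p = 0.101), without non-carrier array 3 of run B (adjusted p = 0.0509) and without any 1 of the runs HB9MNs, A, D, F and 10-week (adjusted p = 0.0505 to 0.0846). The change was negative under all 21 alternatives, with -0.078 and -0.054 as the extremes, the latter with Olig2, Mnx1, Isl1 and Lhx3 in the model (adjusted p = 0.0507).

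No other member was called for serum. Sox9 had a carrier minus non-carrier difference of -0.056 (95% confidence interval -0.11 to -0.0028, adjusted p = 0.220), and its carrier mean was lower in 9 of 9 runs. Its arrays had a lowest, median and highest level of 9.64, 9.86 and 10.32 with non-carrier and of 9.58, 9.81 and 10.09 with carrier serum. Aqp4 had a difference of 0.065 (-0.0048 to 0.13, adjusted p = 0.273), with a higher carrier mean in 7 of 9 runs. With the 4 motor neuron and progenitor genes Olig2, Mnx1, Isl1 and Lhx3 in the model, Aqp4 was called instead of Slc1a2 (0.10, adjusted p = 0.0280), and 6126 of all genes were called. The differences of Gfap (0.033), Fabp7 (0.031), Aldh1l1 (0.022), S100b (-0.015) and Glul (-0.0099) had adjusted p of 0.507 to 0.864 and intervals that include 0. The widest of these intervals, that of Aldh1l1, ran from -0.073 to 0.12. The 8 members had a median difference of 0.0063, all genes one of 0.016.

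**Figure D5:**
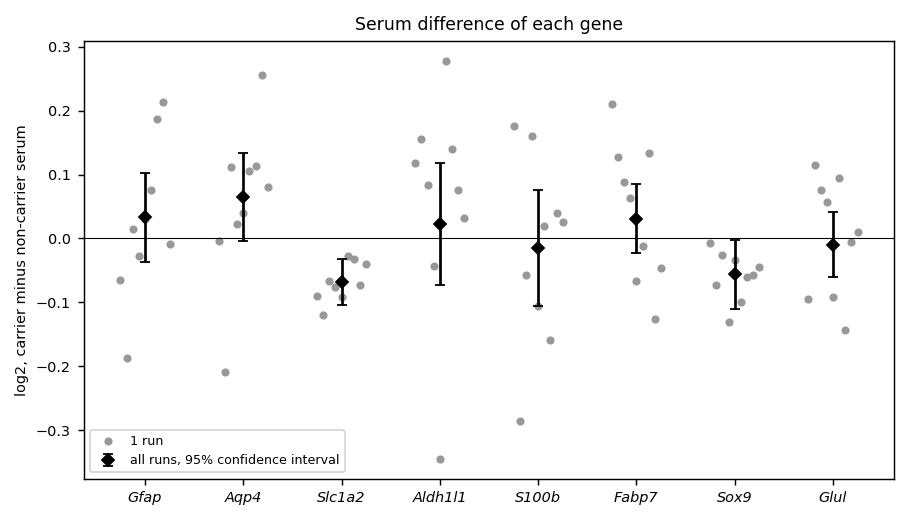
Carrier minus non-carrier difference of each member in log2 units, with 1 grey point for each of the 9 runs and a black diamond with its 95% confidence interval for the fit over all runs. All 9 run differences of Slc1a2 and of Sox9 are below 0, and those of the other 6 members lie on both sides.

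The serum difference of Aldh1l1 varied most between runs, from -0.35 in C to 0.28 in D. In run D the non-carrier arrays had 7.08, 7.16, 7.02 and 7.26 and the carrier arrays 7.32, 7.57 and 7.33, without overlap. In run C the non-carrier arrays had 7.39, 7.47, 7.83, 7.96 and 8.03 and the carrier arrays 7.11, 7.34, 7.47, 7.33, 7.22 and 7.88. Run C, with 11 arrays, is the largest run and can be parted in 2 by the order in which its arrays are listed. The non-carrier arrays of the first block had the 2 lower of these values and those of the second the 3 higher ones, while the carrier arrays ran from 7.11 to 7.47 in the first and from 7.22 to 7.88 in the second. Without run C, Aldh1l1 had a difference of 0.11 (adjusted p = 0.0409). A run by serum interaction was called for 0 of 8 members (limma F test) and for 0.127% of all genes. At an unadjusted p under 0.05 this limma test had 7.94% of all genes and 2 members, Aldh1l1 with an adjusted p of 0.527 and Fabp7 with one of 0.607. With array weights the adjusted p of Aldh1l1 was 0.0207.

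Further genes of the same cells were read from lists chosen by symbol. Of 29 other astrocyte genes, 22 lay above the olfactory receptor range, as did 13087 of all 19613 genes. For serum 0 of the 29 were called, beside 2.33% of all genes, and their median difference was 0.022. At an unadjusted p under 0.05 in limma there were 5 of the 29, beside 4057 of all 19613. Within runs 9 of the 29 were called as rising with Olig2 and 0 as falling, beside 16.2% of all genes rising and 1929 of 19612 falling. At an unadjusted p under 0.05 in limma 13 of the 29 passed in either direction. This number was not counted over all genes, of which 26.1% passed even at an adjusted p under 0.05. Among the 9 were Atp1b2 (slope 0.51, adjusted p = 0.0133), a subunit of the sodium pump of glia, and Aldoc (0.82, 0.0131), a glycolytic enzyme of astrocytes. Across runs the highest r with Olig2 was that of Kcnj10, a potassium channel of astrocytes (0.755), and the lowest were those of Cd44 (-0.618) and Fgfr3 (-0.460). None of the 29 was called across runs (limma, 4 at an unadjusted p under 0.05, beside 544 of 19612 genes).

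Of 26 other radial glia and neural progenitor genes, 1 was called for serum, where 2.33% of all genes were called. Id4, an inhibitor of basic helix-loop-helix factors, rose by 0.11 on the log2 scale with carrier serum (SE 0.022, adjusted p = 0.00281) and was higher in 9 of 9 runs. The median serum difference of the list was 1.41e-05. Within runs 7 of the 26 rose with Olig2, beside 16.2% of all genes, and 0 fell, beside 1929 of 19612. At an unadjusted p under 0.05 in limma 10 of the 26 passed in either direction. This number, too, was not counted over all genes, of which 26.1% passed at an adjusted p under 0.05. Among the 7 were Sox3 (0.73, adjusted p = 2.33e-04), Notch1 (0.45, 0.00187) and the Notch target Hes5 (0.49, 0.0231). Across runs Id4 and the RNA-binding protein gene Msi1 had the lowest r with Olig2 (-0.785 and -0.701), and Hopx and Ptprz1 the highest (0.662 and 0.616). Across runs 0 of the 26 were called (limma, 5 at an unadjusted p under 0.05, beside 544 of 19612 genes).

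Genes of the motor neuron lineage and of other cells were counted in the same way, against 2.33% of all genes called for serum and 16.2% called as rising with Olig2 within runs. Of 8 progenitor genes of this domain 1 was called lower with carrier serum, the hedgehog receptor Ptch1 (-0.097, adjusted p = 0.0416). Differences were negative for 8 of 8, beside 7629 of all 19613 genes, and Olig2 itself had -0.085 (adjusted p = 0.0936). Olig1, the neighbour and relative of Olig2, had the steepest slope with Olig2 within runs among these progenitor genes (1.11, adjusted p = 1.59e-04). Of 7 motor neuron genes 1 was called higher, the choline transporter Slc5a7 (0.15, adjusted p = 0.0410), and Mnx1 (0.59, adjusted p = 0.00866) and Lhx3 (0.38, adjusted p = 0.0421) rose with Olig2 within runs. Of 10 pan-neuronal genes 3 were called higher with carrier serum, Snap25 (0.074), Stmn2 (0.061) and Nefl (0.058). In the lists for oligodendrocytes, Schwann cells and neural crest, microglia, floor plate, pluripotent cells, mesenchyme, endoderm and cell cycle, 0 genes were called for serum (limma, with 2, 1, 1, 1, 2, 2, 1 and 2 at an unadjusted p under 0.05). Over all genes 4057 of 19613 were at that unadjusted p. The numbers rising with Olig2 within runs were 3 of 9, 3 of 6, 3 of 8, 2 of 5, 1 of 6, 4 of 6, 3 of 6 and 0 of 7, in the same order, and 4 of the 7 cell cycle genes fell. Over all genes 1929 of 19612 were called as falling. Several of these lists hold genes within the olfactory receptor range, among them 6 of the 8 microglia markers.

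For each member the genes with the most similar pattern were taken by Pearson's r over 59 arrays after removal of run and serum means. Sox9 was nearest to Gltscr1 (0.822) and to the retinoic acid receptor gene Rara (0.817). Fabp7 was nearest to Raph1 (0.689) and Ptprz1 (0.676), a receptor phosphatase gene of radial glia, and Aldh1l1 had the glutamate receptor gene Gria1 (0.836) among its nearest. The nearest genes of Glul were Nrf1 (0.742) and Atg16l1 (0.741), those of Slc1a2 Fam120c (0.623) and Slc35e2 (0.621), and those of S100b C1ql2 (0.687) and Ccdc162 (0.617). Gfap was nearest to the myosin genes Myh11 (0.80) and Myh13 (0.795), and Aqp4 to Chrne (0.831) and Apol9a (0.818). The means of Myh11 (6.37), Chrne (6.45) and Apol9a (6.33) lay just above the olfactory receptor limit of 6.31, and that of Myh13 (5.92) below it.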

How the data were processed

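RNA of 59 samples was hybridized to Affymetrix mouse exon arrays. The authors normalized all arrays together by robust multi-array averaging (RMA) in aroma.affymetrix, averaged the exons of each gene and dropped outlying arrays by Grubbs' test, and the labels also name Affymetrix Expression Console. The deposited numbers are linear intensities. The scale on which exons were averaged is not given in the sources used here. The study's later batch correction by 4 genes is not seen in the values. Here log2 intensities were used, with a pseudocount of 0 and no filter.

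The 8 members, the gene lists and the tests were chosen with earlier results of these data known. Linear models were fitted with limma 3.58.1 (lmFit, eBayes; R 4.3.3), and p-values are two-sided and were adjusted after Benjamini and Hochberg across every gene tested. Fits were made for serum with run as a block, for run with serum in the model, for their interaction, for the run mean of Olig2 over 9 run means (each the mean of both serum means), and for Olig2 within runs. Exact permutation tests of run means used NumPy 2.4.6. The code was tested on simulated data. Alternatives changed the block, the scaling, the dim-gene filter or the variance model, or left out runs and arrays. Pair correlations under other scalings and the brightness values were added after seeing the data.

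The text names the members, the 4 correction genes, the genes of each list with the 2 highest and 2 lowest r with Olig2 or a serum call (given for part of the lists), and the 2 genes most like each member. Other genes called within runs were chosen after their values were seen. Some genes that this rule names are not reported here. Older symbols were matched through RefSeq synonyms. The number of arrays limits the precision.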

Additional observations from a re-analysis of the deposited data

Results flagged for a closer look

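Of 36 groups of 4 to 10 arrays of 1 run and serum, over the 8 members and Olig2, 1 had an array far from the others by Dixon's criterion, which chance meets in about 1 of 20 groups. It was Glul in non-carrier array 1 of the run motorneuron, at 9.09 on the log2 scale, where the other 3 arrays had 9.33 to 9.36. The gap was 0.865 of the range of the 4 arrays. The same array had the highest Sox9 level of its run. No cause was tested.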

How the results depend on the processing

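Serum differences and Olig2 slopes are in log2 units here, and values across runs are r. The serum call of Slc1a2 was lost in 9 of 21 alternatives, and no member was called for serum (0 of 8) without a block, with run as a random block, with quantile normalization, or without the runs HB9MNs, A, D, F or 10-week, while 2 were called with array weights (Sox9 beside Slc1a2) and 2 without run C. Members called within runs numbered 0 with the replicate block and without motorneuron, 2 with quantile normalization, and 3 without run E and without the Grubbs arrays. The interaction was called for 1 member with array weights, and run differences for 4 of the 4 members at or above the median intensity, a filter that leaves 4 members untested.

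The following values had the opposite sign. For serum, Glul had 0.00143 without a block, 0.00369 with quantile normalization, 0.0140 with array weights, and 0.00147, 0.00870 and 0.00544 without motorneuron, C and E. S100b had 0.0268 with the 4 genes in the model, and 0.00455, 0.00525 and 0.00113 without HB9MNs, C and E. Gfap had -0.00733 with quantile normalization and Aldh1l1 -0.0115 without D. Across runs, Aqp4 had 0.0366, 0.0952, 0.0793, 0.0772 and 0.116 without A, C, D, F and 10-week, and 0.129 over carrier arrays, where Glul had -0.0848. Gfap and S100b had -0.140 and -0.173 without motorneuron, and -0.145 and -0.218 against Olig1. Fabp7 had -0.0123 with quantile normalization and -0.0337 without HB9MNs.

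Within runs, Aldh1l1 had -0.0337 after median centring, -0.0849 with quantile normalization and -0.304 without motorneuron. S100b had -0.206, -0.0848 and -0.0808 in the same 3 settings, and -0.0475 and -0.0177 without C and D. Slc1a2 had -0.0384 after centring and -0.00107 without motorneuron, and Gfap 0.0573 without E. Fabp7 had 0.165 with quantile normalization, 0.00854 with run C in 2 blocks, 0.0943 without the Grubbs arrays, and 0.0125, 0.0838, 0.0365, 0.153, 0.00224 and 0.0246 without HB9MNs, B, C, E, F and 10-week. With the replicate number as a block, Aldh1l1 had -0.20, S100b -0.0368 and Sox9 0.25 (adjusted p = 0.308), whereas the serum call of Slc1a2 held (-0.068, adjusted p = 0.0404). Deviations of arrays with the same number correlated at -0.135 to 0.327, so that the numbers were not taken as pairs.

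With single arrays left out, 0 to 1 members were called for serum and 0 to 3 within runs. The ranges were -0.0166 to 0.000984 for Glul and -0.0292 to 0.00221 for S100b with serum, -0.0804 to 0.0556 for Aqp4 across runs, and -0.0114 to 0.269 for Aldh1l1, -0.0675 to 0.187 for S100b and -0.127 to 0.0782 for Fabp7 within runs. Over all genes, serum calls ran from 0 without a block to 6126 with the 4 genes in the model, against 457, with 2803 for array weights, 716 without the Grubbs arrays, 1601 without run C, and fewer than the 457 without A (230), B (168), D, E (270), F (163) or 10-week (113), with D the lowest of these. Interaction calls ran from 0 to 1019, against 25. Within runs, 151 genes were called with the replicate block, 788 without motorneuron, 1084 after centring and 1979 with array weights, against 5111, and across runs 81 without HB9MNs and 3 with Olig1, against 0. The causes were not tested. Aqp4, at the olfactory receptor level, is the member whose signal most limits its values.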
